A study of Bos taurus with 9 samples.

Results

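The genes described here are 10 members of the BCL2 family, whose proteins govern the mitochondrial route to apoptosis. They were chosen by name, as BCL2, BCL2L1, MCL1, BAX, BAK1, PMAIP1, BBC3, BCL2L11, BID and BAD. All 10 were among the 17162 genes of the expression table, and all 10 passed the filter on low values that left 12578 genes to be tested.

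RNA was sequenced from BEND, primary bovine endometrial cells, in 9 libraries of 3 groups with 3 libraries each. CON cells received no agent, GA cells received estradiol (E2, 1 nM) and progesterone (P4, 100 nM), and GB cells received the same E2 and P4 and then interferon tau (IFNT, 100 ng/mL). IFNT is the type I interferon by which the ruminant conceptus signals its presence to the uterus. Each treatment lasted 12 h in the methods, with IFNT following the hormones, and the genotype label was WT in all groups. When CON and GA cells were collected is not given separately in the sources used here, so IFNT and a longer culture cannot be told apart in the comparisons with GB. The cells came from Holstein uteri collected at an abattoir and had been passaged before use, and the labels give neither the age of the cows nor whether the 3 replicates of a group came from separate cows. The p-values therefore measure the spread between these libraries, which may be technical.

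Values are FPKM (fragments per kilobase of exon, adjusted for the number mapped), a level per length that can be compared between genes. The FPKM of a library summed to 1395622 to 1442723, and the number of reads behind a value is not known from this unit, so no counting interval is given. Differences are log2FC, the difference of group means of log2(FPKM + 0.5), tested with limma in 1 fit over the 9 libraries. A DEG passed an adjusted p under 0.05 (Benjamini-Hochberg, over the 12578 genes) and a |log2FC| above 1.

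BCL2 family proteins share short BCL2 homology (BH) domains and meet at the outer membrane of the mitochondrion. The effectors BAX and BAK1 can form pores there, through which cytochrome c leaves to activate caspases. The guardians BCL2, BCL2L1 and MCL1 hold the effectors and their activators in check, and the BH3-only proteins PMAIP1, BBC3, BCL2L11, BID and BAD either occupy the guardians or activate the effectors directly. In the endometrium the balance of these proteins is known for its part in the turnover of the lining over the cycle. Much of the control is on protein level, through phosphorylation, cleavage and degradation, which RNA levels do not show.

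The treatment labels were checked on interferon-stimulated and steroid-responsive genes. ISG15, an interferon-induced ubiquitin-like protein, was at 1.76 to 7.01 FPKM in CON and GA libraries and at 5536 to 5616 FPKM in GB, and MX1, an interferon-induced antiviral GTPase, was at 5.91 to 8.53 and 1558 to 1587 FPKM. GREB1, an estrogen-responsive gene, was at 0.09 to 0.38 FPKM in CON, 2.12 to 2.44 FPKM in GA and 2.03 to 2.51 FPKM in GB. These 3 genes separated the libraries in the way the labels give, and IFIT1 was not analysed here.

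The cells are described as epithelial, but the 8 epithelial markers KRT7, KRT8, KRT18, KRT19, CDH1, ESRP1, CLDN4 and MUC1 together reached only 0.54 to 2.23 FPKM in any library. The most abundant of them, KRT18, was at 0.16 to 0.67 FPKM, CDH1, the adhesion protein of epithelia, was at 0 to 0.14 FPKM, and ESRP1, an epithelial splicing factor, was listed at 0 in all CON libraries. The RNA of these defining markers was therefore near 0. In the methods of the study, epithelial identity was assessed by immunostaining for a cytokeratin protein, which the RNA table does not measure. The 9 stromal fibroblast markers summed to 15233 to 17378 FPKM, led by VIM, the intermediate filament protein of mesenchymal cells. The 5 endothelial markers summed to 1.57 to 3.44 FPKM (CDH5 most abundant) and the 5 measured immune markers to 21.6 to 28 FPKM (CD14 most abundant).

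By 1 of the measures of deviation, CON replicate 2 stood apart from the other libraries before any comparison. Its median absolute deviation from the other libraries of its group was 0.13 on the log2 scale, against 0.08 to 0.11 for the other 8 libraries. It did not stand apart in the genes that deviated by over 1 (60 higher and 101 lower) or in its lowest correlation within the group (0.989). PMAIP1 deviated by −1.74 on that scale in this library from the mean of the other 2 CON libraries, 3.34-fold lower, which placed it 49th of 12578 genes by the size of that deviation, and the other members were between 0.52 higher (BCL2L11) and 0.32 lower (BAD). Results for PMAIP1 are therefore given with and without this library. Read GC content, used below as a covariate, was higher in every CON library than in any GA or GB library and highest in CON replicate 2, so the covariate and the group cannot be fully told apart in comparisons with CON.

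In untreated cells the members covered a range of mean levels from 13.7 FPKM (BCL2L11) to 241 FPKM (BAX). BAX was the most abundant, at 241 ± 19.4 FPKM (SD, n = 3), followed by MCL1 at 180 ± 16.7 FPKM. BAD, BID and BAK1 came next, at 133 ± 18.2, 128 ± 15.8 and 121 ± 0.688 FPKM, and neighbours among these 3 had overlapping ranges. BCL2L1 followed at 85.9 ± 16 FPKM, and PMAIP1, BCL2, BBC3 and BCL2L11 were lowest, with overlapping ranges between neighbours. In GA the order was the same except that BCL2L11 stood above BBC3, and no pair of neighbours overlapped. In GB, MCL1 was first at 243 ± 4.77 FPKM but overlapped BAX at 231 ± 13.4 FPKM. BID had moved to the third place and PMAIP1 to the sixth, where it overlapped BAK1 and BCL2L1, and BBC3 was last.

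**Figure D1:**
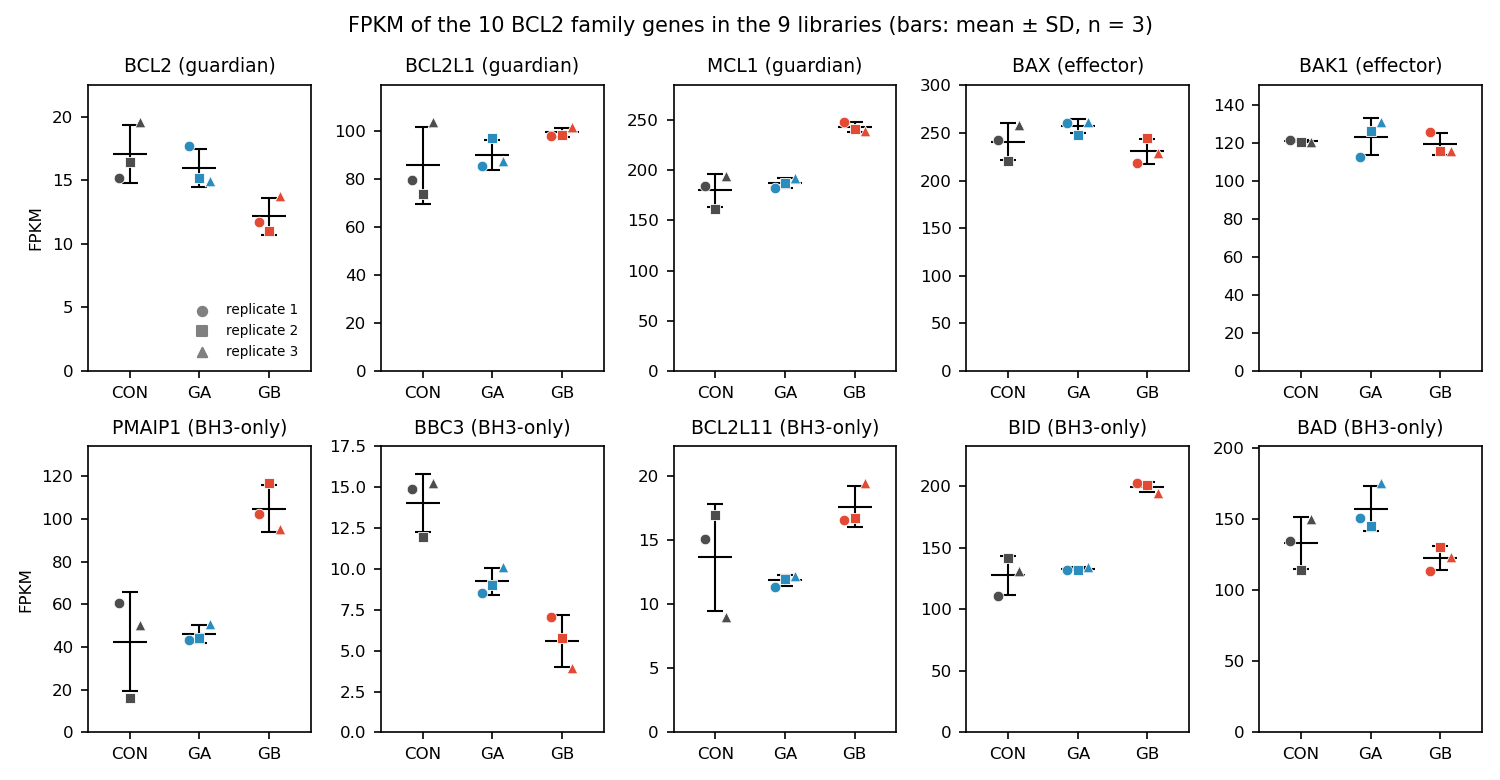
FPKM (linear axis from 0, 1 panel per gene) of the 10 BCL2 family members in the 9 libraries, by group; point shapes are replicates 1 to 3 and bars are mean ± SD (n = 3). In GB, PMAIP1, BID and MCL1 lie above all CON and GA libraries, and BBC3 and BCL2 lie below all of them.

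GB differed from CON in 5 of the 10 members at an adjusted p under 0.05, with PMAIP1, BID and MCL1 higher and BBC3 and BCL2 lower, and 2 of these, PMAIP1 and BBC3, were DEGs. Over all genes tested, 33.5% passed the same adjusted p in this comparison, 16.2% higher and 17.3% lower, and 4.01% were DEGs, 2.94% higher and 1.07% lower. GB differed from GA in 5 members at an adjusted p under 0.05, with BID and MCL1 higher and BBC3, BCL2 and BAD lower, against 29% of all genes (9.87% higher and 19.2% lower), and none was a DEG, against 3.64% (2.66% higher and 0.978% lower). In GB vs. GA, limma gave 8 members an unadjusted p under 0.05, beside 40% of all genes. PMAIP1 became a DEG there under 10 of the 21 alternatives. These were 8 of the 12 that did not leave out a single library and 2 of the 9 that did. No member passed in GA vs. CON, where 0.453% of all genes had an adjusted p under 0.05 (0.246% higher and 0.207% lower) and 0.0716% were DEGs (0.0318% higher and 0.0398% lower). BBC3 and BAD were the 2 members with an unadjusted p under 0.05 in limma there, beside 19.3% of all genes. The moderated F test for any difference among the 3 groups passed for BCL2, MCL1, PMAIP1, BBC3 and BID, 5 of 10 members, against 34.6% of all genes. The median log2FC of the 10 members was 0.10 for GB vs. CON, 0.050 for GB vs. GA and 0.063 in GA vs. CON, and that of all genes was −0.016, −0.075 and 0.061. GB vs. CON and GB vs. GA share the GB libraries and are given side by side.

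The 9 stromal fibroblast markers had a summed level of 17153 ± 321 FPKM in CON, 17173 ± 197 in GA and 15307 ± 64.3 in GB (SD, n = 3). VIM made up the largest share of that sum and fell (log2FC −0.22 and −0.17 in the comparisons of GB with CON and GA), as did the collagen gene COL1A2, the next most abundant (−0.22 and −0.25), while PDGFRA, a growth factor receptor, rose (0.38 and 0.33). At the adjusted p, 1 of the 9 rose and 4 fell in GB vs. CON (16.2% and 17.3% of all genes), 1 rose and 5 fell in GB vs. GA (9.87% and 19.2%), and 2 rose and 1 fell in GA vs. CON (0.246% and 0.207%). The summed endothelial markers were at 2.15 ± 0.412, 1.67 ± 0.111 and 2.95 ± 0.606 FPKM in CON, GA and GB, and CDH5, the 1 of the 5 that was tested, rose in GB vs. GA (0.68, adjusted p = 0.0395). The summed epithelial markers were at 1.04 ± 0.646, 1.43 ± 0.435 and 1.89 ± 0.489 FPKM in the same order. Their part in the results for the members was not tested. In bulk RNA, fewer cells of a type and less RNA per cell cannot be told apart.

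**Figure D2:**
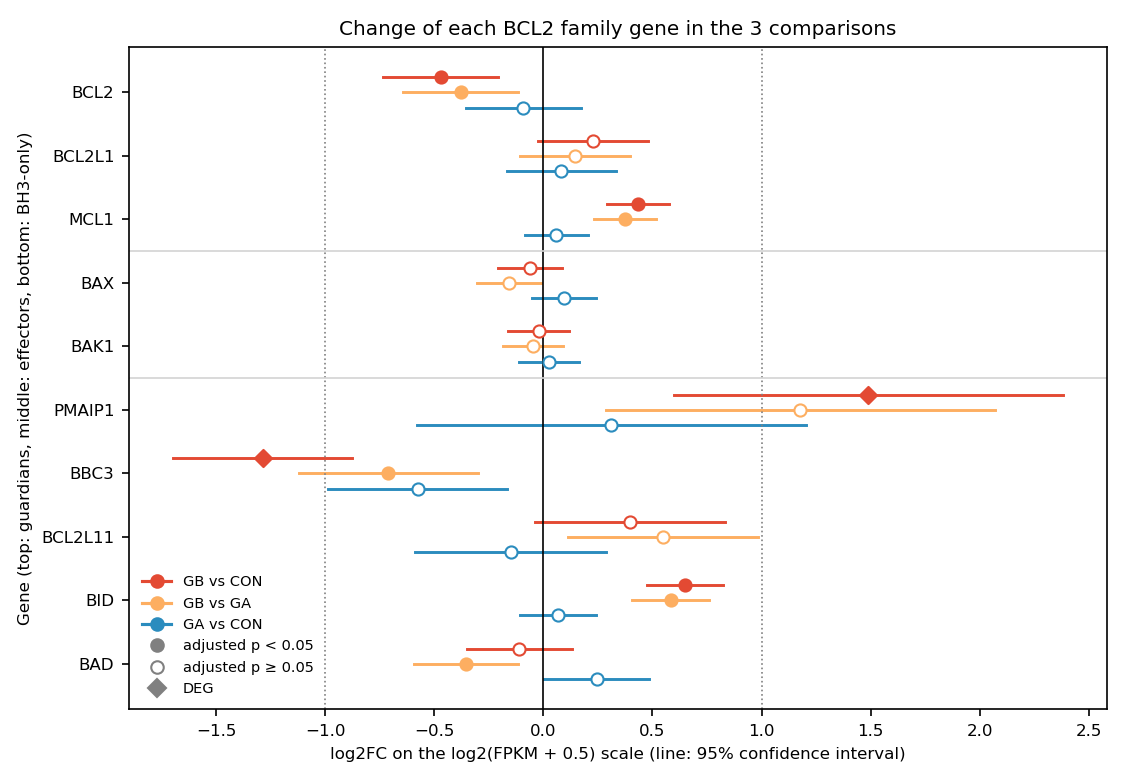
log2FC of each member on the log2(FPKM + 0.5) scale in GB vs. CON, GB vs. GA and GA vs. CON, with 95% confidence intervals from limma (lines), filled circles for an adjusted p under 0.05, diamonds for DEGs and dotted lines at a log2FC of −1 and 1. PMAIP1 in GB vs. CON (1.49) and BBC3 in GB vs. CON (−1.29) are the DEGs, and the interval of PMAIP1 is the widest in each comparison.

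PMAIP1 (NOXA), which binds MCL1 above all, had the largest log2FC by size of the BH3-only members in both comparisons with GB. It was at 60.8, 16.3 and 50.5 FPKM in the CON libraries, at 43.4, 44.0 and 50.8 FPKM in GA and at 103, 117 and 95.4 FPKM in GB. Every GB library was above every other library, and the low CON value was that of replicate 2, which gave CON a coefficient of variation of 54.9% against 8.85% in GA and 10.4% in GB. PMAIP1 rose by a log2FC of 1.49 (SE 0.395, adjusted p = 0.0178) in GB vs. CON. Against GA the log2FC of GB was 1.18 (SE 0.395, adjusted p = 0.0513), and in GA vs. CON it was 0.31 (adjusted p = 0.692), which turned to −0.27 (adjusted p = 0.327) without CON replicate 2.

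CON replicate 2 entered the PMAIP1 result of GB vs. CON through the CON mean, and that of GB vs. GA through the pooled spread. Without it, the log2FC of GB was 0.91 against CON (adjusted p = 0.000664), under the fold threshold, and 1.18 against GA (SE 0.101, adjusted p = 8.09e-05), a DEG. A fit of GB and GA alone gave the latter an SE of 0.0910 and an adjusted p of 0.000143. With read GC content per library as a covariate, the GB vs. CON value turned to −0.15 (SE 0.462, adjusted p = 0.873). In GB vs. CON, BBC3 had the larger log2FC by size without CON replicate 2 (−1.39) and with this covariate (−1.36).

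BBC3 (PUMA), which can bind all guardians, fell. It was at 14.9, 12.0 and 15.2 FPKM in CON, at 8.53, 9.01 and 10.1 FPKM in GA and at 7.05, 5.75 and 3.92 FPKM in GB. The 3 groups did not overlap and stepped down from CON to GA to GB, a pattern shared by 2.04% of the genes tested, with 3.16% stepping up. The log2FC of GB was −1.29 (SE 0.182, adjusted p = 0.000685) against CON and −0.71 (adjusted p = 0.0172) against GA. In GA vs. CON it was −0.58, with an unadjusted p of 0.0112 in limma and an adjusted p of 0.152. It stayed a DEG in GB vs. CON with each library left out in turn (−1.46 to −1.07), but not with the GC covariate, where the SE was larger (−1.36, SE 0.373, adjusted p = 0.0535). Against GA it kept an adjusted p under 0.05 under 20 of 21 alternatives, with 0.0638 without GA replicate 3.

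**Figure D3:**
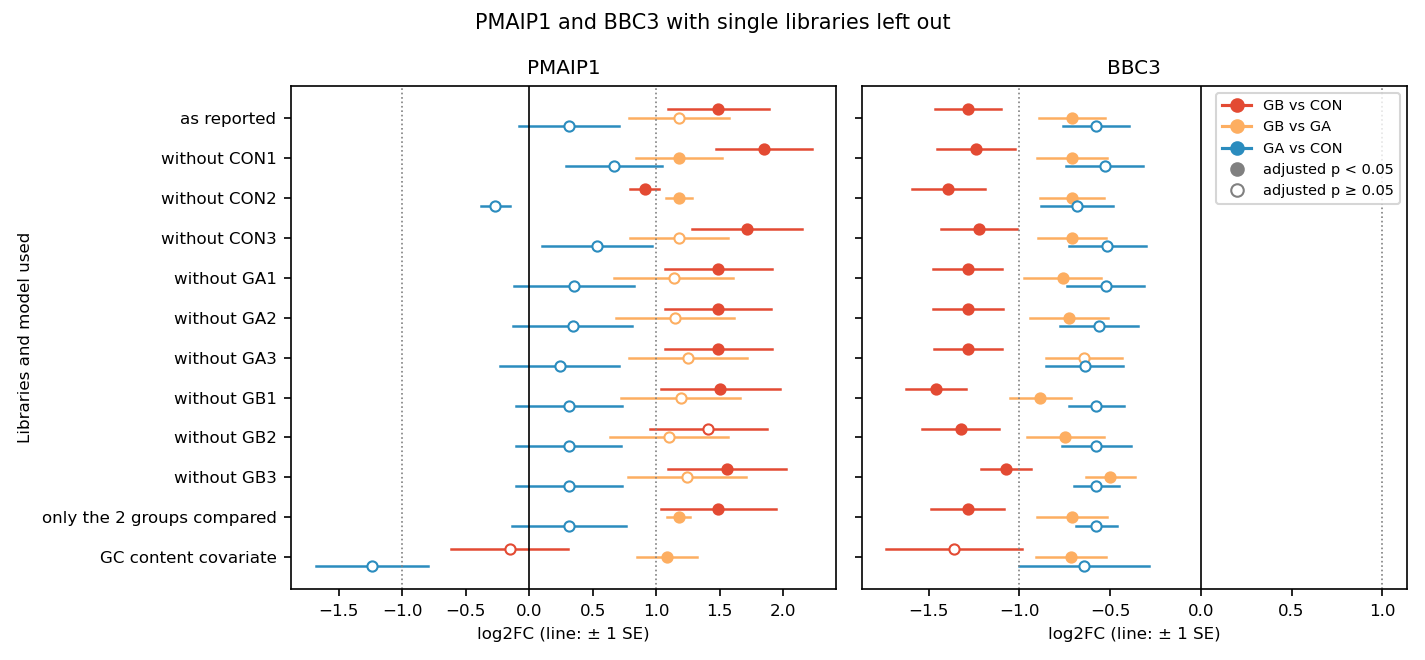
log2FC (lines: ± 1 SE) of PMAIP1 (left) and BBC3 (right) in the 3 comparisons as reported, with each library left out, with only the 2 groups compared and with the GC covariate; filled circles have an adjusted p under 0.05. Without CON replicate 2, PMAIP1 in GB vs. CON lies at 0.91 and its SE shrinks, while BBC3 in GB vs. CON stays below −1 in each row.

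BID, which links death receptors to mitochondria once caspase-8 has cleaved it, was the most abundant BH3-only member in GB. In CON and GA its mean was below that of BAD. BID was at 111, 142 and 131 FPKM in CON, at 132, 132 and 134 FPKM in GA and at 202, 201 and 195 FPKM in GB. The GB libraries lay close together and above all the others. BID rose in GB by a log2FC of 0.65 (SE 0.0776, adjusted p = 0.000241) against CON and 0.58 (SE 0.0776, adjusted p = 0.000555) against GA, and its adjusted p stayed under 0.05 in both under all 21 alternatives.

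BCL2L11 (BIM), a BH3-only activator, was at 15.1, 17.0 and 8.98 FPKM in CON, at 11.4, 12.0 and 12.2 FPKM in GA and at 16.6, 16.8 and 19.5 FPKM in GB. GB was above all GA libraries and overlapped CON, where replicate 3 was low. The log2FC of GB was 0.40 against CON (adjusted p = 0.146) and 0.55 against GA (adjusted p = 0.0620), neither of which passed. The value against CON was 0.57 without CON replicate 2 (adjusted p = 0.0492) and 0.13 without CON replicate 3 (adjusted p = 0.333). That against GA passed under only 3 of 21 alternatives. These were without CON replicate 2 (adjusted p = 0.0362), without CON replicate 3 (adjusted p = 0.00197) and a fit of GB and GA alone (adjusted p = 0.00265). The highest adjusted p was 0.166, without GB replicate 3.

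BAD, which binds BCL2 and BCL2L1 and is held inactive by phosphorylation, was at 135, 114 and 150 FPKM in CON, at 151, 145 and 175 FPKM in GA and at 114, 131 and 124 FPKM in GB. All GB libraries were below all GA libraries, and GB overlapped CON. BAD was lower in GB than in GA, with a log2FC of −0.35 (SE 0.106, adjusted p = 0.0337), and did not pass against CON (−0.11, adjusted p = 0.459). The former kept an adjusted p under 0.05 under 15 of 21 alternatives, with 0.117 without GA replicate 3, and the latter passed with the GC covariate (−0.56, adjusted p = 0.0165). In GA vs. CON the log2FC was 0.24, with an unadjusted p of 0.0473 in limma and an adjusted p of 0.252. With each library left out, BAD ranged from −0.22 to −0.018 in GB vs. CON and from 0.14 to 0.34 in GA vs. CON.

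Among the guardians, MCL1, a short-lived protein that PMAIP1 can antagonise, was the most abundant. It was at 184, 162 and 194 FPKM in CON, at 182, 187 and 192 FPKM in GA and at 248, 241 and 239 FPKM in GB. GB was above all CON and GA libraries and CON overlapped GA. MCL1 rose in GB by a log2FC of 0.43 (SE 0.0633, adjusted p = 0.000805) against CON and 0.38 (SE 0.0633, adjusted p = 0.00215) against GA. With the GC covariate the value against CON was 0.23 (adjusted p = 0.160).

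BCL2, the founding guardian of the family, was at 15.2, 16.4 and 19.6 FPKM in CON, at 17.7, 15.2 and 15 FPKM in GA and at 11.7, 11.0 and 13.8 FPKM in GB. GB was below all the other libraries. BCL2 fell in GB by 0.47 on the log2 scale (SE 0.117, adjusted p = 0.0133) against CON and by 0.38 (SE 0.117, adjusted p = 0.0373) against GA, and the latter kept an adjusted p under 0.05 under 13 of 21 alternatives. Against CON the adjusted p was lost with the GC covariate (−0.55, adjusted p = 0.182) and with the covariate and replicate block (−0.22, adjusted p = 0.735). The guardians thus held 1 member that rose and 1 that fell.

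BCL2L1, which encodes BCL-xL among other products, was at 79.7, 73.9 and 104 FPKM in CON, at 85.4, 97.2 and 87.8 FPKM in GA and at 98.3, 98.7 and 102 FPKM in GB. It was above GA in every GB library and overlapped CON. Neither log2FC passed, at 0.23 (95% interval −0.022 to 0.48, adjusted p = 0.146) against CON and 0.15 (−0.11 to 0.40, adjusted p = 0.367) against GA. The value against CON was 0.37 without CON replicate 3 (adjusted p = 0.00403) and 0.13 without CON replicate 2 (adjusted p = 0.392).

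Neither effector passed in the fit over the 9 libraries. BAX, the most abundant member in CON and GA, was at 243, 220 and 259 FPKM in CON, at 261, 248 and 262 FPKM in GA and at 218, 245 and 229 FPKM in GB. GB lay below all GA libraries and overlapped CON, with a log2FC of −0.16 (95% interval −0.30 to −0.0096, adjusted p = 0.104) against GA and −0.060 (−0.21 to 0.087, adjusted p = 0.516) against CON. The value against GA passed under only 2 of 21 alternatives, with an adjusted p of 0.0446 without CON replicate 2 and of 0.0285 with the GC covariate. The highest adjusted p was 0.301, with median-of-ratios factors (log2FC −0.082). BAK1, the other pore-forming member, was at 122, 121 and 121 FPKM in CON, at 113, 126 and 131 FPKM in GA and at 126, 116 and 116 FPKM in GB. All 3 groups overlapped, and the 95% intervals of its log2FC were −0.16 to 0.12 against CON and −0.18 to 0.092 against GA. With median-of-ratios factors the BAK1 value in GB vs. GA changed sign, to 0.028.

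GB did not overlap CON for 5 members (3 higher and 2 lower), beside 46.1% of all genes (22.2% higher and 23.9% lower). GB did not overlap GA for 9 members (5 higher and 4 lower), beside 46.8% of all genes (15.7% and 31%). GA did not overlap CON for 1 member (BBC3, lower), beside 24.7% of all genes (18.6% and 6.13%). MCL1, PMAIP1 and BID were above all CON and GA libraries in every GB library, as were 13% of the genes tested, and BCL2 and BBC3 were below all of them, as were 19.1%.

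Summed over the roles, guardians were at 283 ± 33.2 FPKM in CON, 293 ± 7.40 in GA and 355 ± 3.67 in GB (SD, n = 3). BH3-only members summed to 331 ± 27.9, 357 ± 22 and 450 ± 18.4 FPKM, and effectors to 362 ± 19.4, 380 ± 10.9 and 350 ± 9.41 FPKM. The sum of guardians and that of BH3-only members were higher in every GB library than in any other. The effector sum in GB (345 to 361 FPKM) overlapped CON and was below that of every GA library (374 to 393 FPKM). As shares of the sum over all 10 members, effectors made up 37.1% in CON, 36.9% in GA and just 30.3% in GB, while BH3-only members were at 33.9%, 34.6% and 39.0%. These sums describe levels and were given no test.

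**Figure D4:**
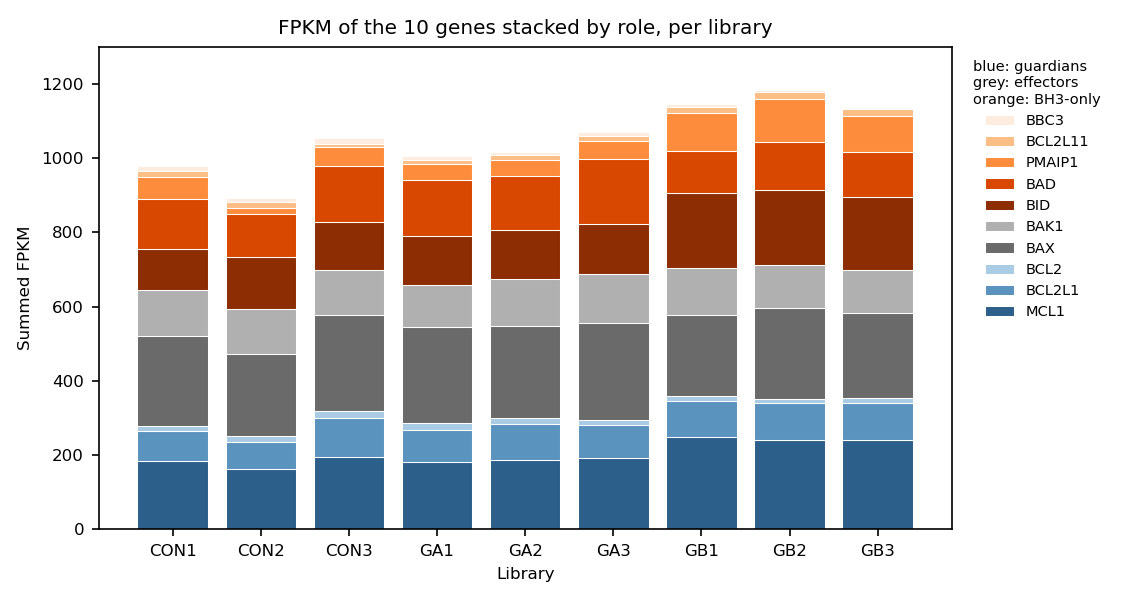
FPKM of the 10 members stacked in each library (1 bar per library), with guardians in blue, effectors in grey and BH3-only members in orange. The orange stack sums to 437 FPKM or more in every GB library and to at most 383 FPKM in the others, and the whole bar is highest in the GB libraries.

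The ratios between single members were a further description. BAX over MCL1 was 1.34 ± 0.0213 in CON, 1.37 ± 0.0540 in GA and 0.951 ± 0.0681 in GB (SD, n = 3). PMAIP1 over MCL1 was 0.230 ± 0.118, 0.246 ± 0.0163 and 0.432 ± 0.0455, and the CON value held the low replicate 2 at 0.101. PMAIP1 over BBC3 was 2.92 ± 1.41 in CON, 4.99 ± 0.0997 in GA and 19.7 ± 4.93 in GB. These 3 ratios were separate between GB and the other libraries, which for PMAIP1 over BBC3 follows from the separate levels of both genes. BAX over BCL2 was 14.2 ± 1.56, 16.2 ± 1.38 and 19.2 ± 2.88, with GB overlapping GA.

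Of the 13 other BCL2 family and BCL2-homology genes listed, 11 were in the table and 7 were tested. BCL2L12, a BCL2-like protein, was the DEG of the list in both comparisons with GB. It was at 47.0, 44.7 and 49.6 FPKM in CON, at 42.7, 46.6 and 47.9 FPKM in GA and at 144, 120 and 142 FPKM in GB. It rose by a log2FC of 1.51 (SE 0.0801, adjusted p = 8.06e-07) against CON and 1.55 (adjusted p = 6.36e-07) against GA. BCL2L12 adjoins IRF3 in the RefSeq ARS-UCD2.0 gene table, and IRF3, a factor of interferon induction, rose by 1.34 and 1.27 in the same comparisons. The part of IRF3 in this result was not tested.

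BCL2L13, a mitochondrial family relative that adjoins BID in that table, was the most abundant of the list at 308 FPKM over the 9 libraries and did not pass (−0.010 against CON and −0.23 against GA). BNIP3, a mitophagy receptor, came next at 106 FPKM and did not pass (0.017 and −0.26). BNIP3L, its close relative, fell in GB vs. GA (log2FC −0.48, adjusted p = 0.00543). BCL2A1 and HRK were not analysed here, and BCL2L10, BIK, BCL2L14 and BCL2L15 were under the filter.

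In 5 further lists of the apoptosis pathway, 38 of 38 genes were tested. In GB vs. CON, 4 rose and 0 fell as DEGs, and 9 rose and 4 fell at the adjusted p, beside 2.94% and 1.07% of all genes as DEGs and 16.2% and 17.3% at the adjusted p. In GB vs. GA, 4 rose and 0 fell as DEGs, and 8 rose and 11 fell at the adjusted p, beside 2.66% and 0.978% of all genes as DEGs and 9.87% and 19.2% at the adjusted p. None passed in GA vs. CON. The median log2FC of these genes was 0.049 for GB vs. CON and −0.0012 for GB vs. GA, beside −0.016 and −0.075 for all genes.

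Of the 4 genes of the apoptosome and caspase list, 0 passed in GB vs. CON, beside 33.5% of all genes. In GB vs. GA, 1 rose and 0 fell, beside 9.87% and 19.2% of all genes. The gene that rose was CASP2, the most abundant of them at 30.8 FPKM over all libraries (log2FC 0.18, adjusted p = 0.0435). CASP6 came next at 18.2 FPKM and did not pass (0.012 and −0.21). XAF1, an antagonist of the caspase inhibitor XIAP, was at 1.81 to 3.91 FPKM in CON and GA and at 226 to 234 FPKM in GB, a log2FC of 6.27 and 6.19. Of the 6 genes of its list, the inhibitor of apoptosis proteins with XAF1, 4 rose and 0 fell at the adjusted p in GB vs. CON (16.2% and 17.3% of all genes), and 3 rose and 1 fell in GB vs. GA (9.87% and 19.2%). XIAP itself rose in GB vs. CON (0.51, adjusted p = 0.00364) and did not pass in GB vs. GA (0.29, adjusted p = 0.0512), and BIRC2, a ubiquitin ligase of the same family, rose by 0.34 and 0.26. BIRC3, its close relative, rose by 0.81 and 0.88, and BIRC5 (survivin), the most abundant of that list at 340 FPKM, fell by 0.33 in GB vs. GA (adjusted p = 0.0298).

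Cytochrome c (CYCS) and the channel VDAC2, the most abundant genes of the outer membrane list at 751 and 730 FPKM, had log2FC of 0.13 and −0.080 in GB vs. CON that did not pass. In GB vs. GA, 6 of the 11 genes of that list fell and 0 rose at an adjusted p under 0.05 (19.2% and 9.87% of all genes). VDAC2 was among them (−0.15, adjusted p = 0.0360). In GB vs. CON, 1 fell and 0 rose (17.3% and 16.2% of all genes). Of the 6 genes for the turnover of MCL1 and other members, 3 fell and 0 rose in GB vs. GA (19.2% and 9.87% of all genes). In GB vs. CON, 2 of them fell and 0 rose (17.3% and 16.2% of all genes). FBXW7, a ubiquitin ligase subunit that marks MCL1 for degradation, was among those lower than in GA (−0.63, adjusted p = 0.0207) and did not pass against CON (−0.14, adjusted p = 0.565). USP9X, which removes ubiquitin from MCL1 and so stabilises it, fell in both comparisons (−0.48 in GB vs. GA, adjusted p = 6.14e-05, and −0.40 in GB vs. CON, adjusted p = 0.000175). DDB1, an adaptor of cullin ligases and the most abundant of the list with MARCH5, fell as well (−0.30 in GB vs. GA, adjusted p = 0.000738), and the MARCH5 value of −0.14 did not pass.

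Of 11 transcriptional regulators of BH3-only genes, 3 were DEGs and rose in both comparisons with GB, beside 2.94% and 2.66% of all genes. At the adjusted p, 5 rose and 1 fell in GB vs. CON (16.2% and 17.3% of all genes), and 4 rose and 1 fell in GB vs. GA (9.87% and 19.2%). IRF1, an interferon-induced factor, was at 17.2 ± 1.11, 15.4 ± 2.19 and 83.0 ± 5.90 FPKM in CON, GA and GB (SD, n = 3). MDM4, a relative of the ubiquitin ligase MDM2, rose by 1.18 and 1.07, and IRF3 is given above. MYC rose by 0.71 and 0.55, and FOXO1 fell by 0.44 and 0.51. ATF4, a stress factor and the most abundant of the list at 320 FPKM, rose by 0.16 in GB vs. CON (adjusted p = 0.0425), and DDIT3 (CHOP), another stress factor, came next at 126 FPKM and did not pass (0.19 and 0.12).

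**Figure D5:**
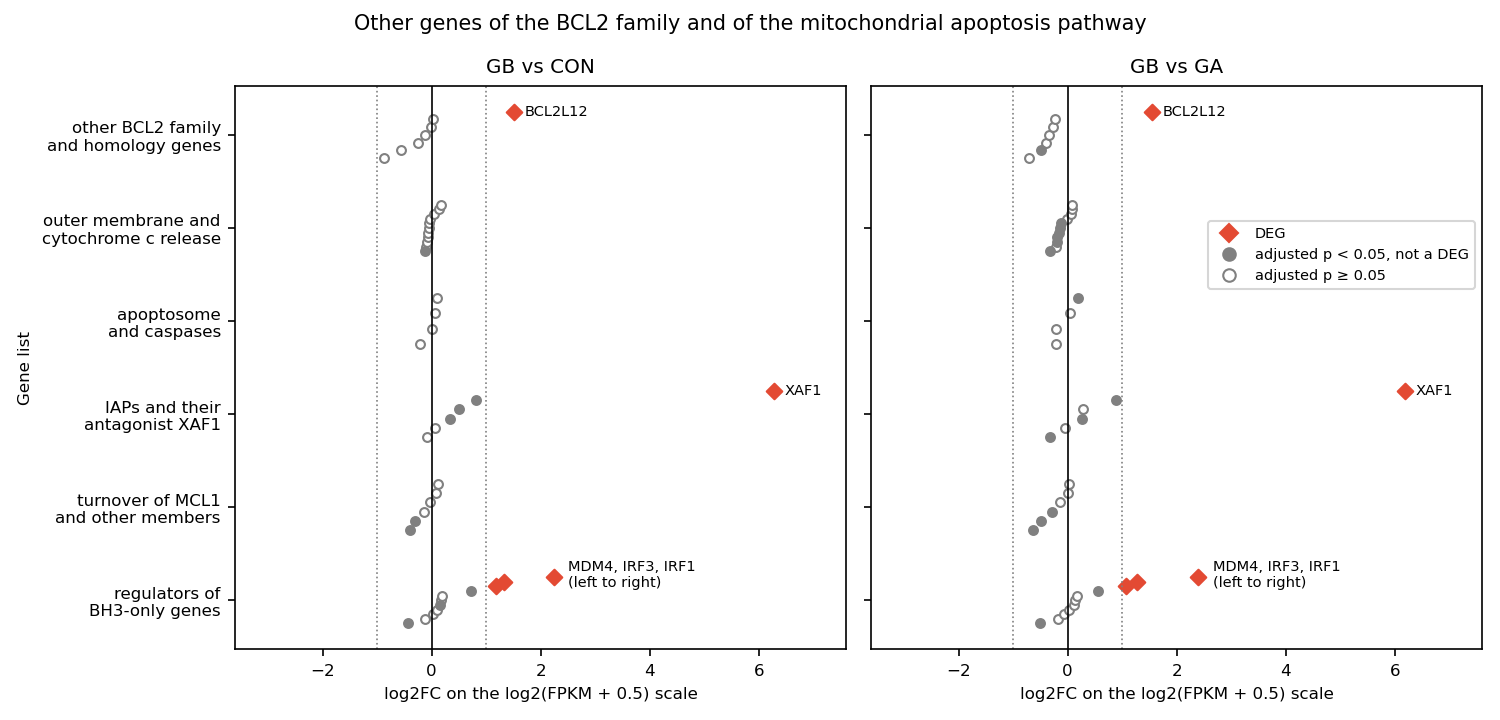
log2FC of each tested gene of the other family list and the 5 pathway lists (rows) for GB vs. CON at left and GB vs. GA at right, on the log2(FPKM + 0.5) scale; diamonds are DEGs, filled circles have an adjusted p under 0.05 only, and open circles did not pass. XAF1 lies at 6.27 and 6.19, and no DEG among the genes plotted lies on the lower side in either comparison.

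By the pattern over the 9 libraries, the tested genes most like PMAIP1 were GCC2, TMA16 and DUSP11, with Pearson's r of log2(FPKM + 0.5) of 0.989, 0.978 and 0.973. TMA16 was at 78.5, 55.6 and 77.5 FPKM in untreated cells and at 96.8, 105 and 97.2 FPKM in GB, so it shared both the low CON replicate 2 and the higher GB values. Those most like BBC3 were MAP1A, ST5 and PITPNM2, at 0.983, 0.974 and 0.963. These values describe 9 libraries that share 3 group means, and were given no p.

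Some members overlap other genes in the RefSeq table. The library kit was a directional one, but whether strand was used in counting is not given in the sources used here, so how reads in the overlapping stretches were assigned is not known. BAX overlaps TULP2, which was at 0.6 to 1.33 FPKM, BCL2L11 overlaps ACOXL, at 0 to 0.06 FPKM, and BAD overlaps GPR137, at 22.5 to 27.1 FPKM. GPR137 had a log2FC of −0.026 in GB vs. GA (adjusted p = 0.803), where BAD fell. A BBC3-like gene, LOC112441985, was at 0 to 0.75 FPKM, and how reads shared with BBC3 were divided is not given, so the BBC3 values hold that uncertainty.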

How the data were processed

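RNA from 9 libraries of BEND cells (3 each of CON, GA and GB) was measured as FPKM. The authors trimmed reads with fastp 0.21.0, removed rRNA reads with Bowtie2, aligned the rest with HISAT2 2.2.1 to ARS-UCD1.2 and quantified genes with RSEM 1.3.3; the deposited FPKM are per gene and library, to 2 decimals, with replicates separate. Groups came from the sample labels, doses and times from the labels and the methods.

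Values were used as log2(FPKM + 0.5), without rescaling, after a filter at a mean FPKM of 0.5 (12578 genes). limma 3.58.1 in R 4.3.3 estimated 1 mean per group from all 9 libraries, with a variance trend and Benjamini-Hochberg adjustment over all genes tested. An exact permutation test of 3 libraries against 3 cannot give a p under 0.1. The procedure was tested on simulated data. Figures were drawn with matplotlib 3.10.9 in Python 3.11.15. Symbols, and neighbours and overlaps by gene position, came from RefSeq (ARS-UCD2.0); as this is another build, no coordinates are given.

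The members and lists were chosen with earlier results of these data known. Named genes are the 10 members; of the lists, the DEGs, the 2 most abundant of each and those with an adjusted p under 0.05 and |log2FC| above 0.5 in GB vs. GA; the 3 genes most like each member that was a DEG; and the label checks. BNIP3L, XIAP, BIRC2, USP9X, PDGFRA and the genes given as neighbours or under the filter fall outside this rule and were named after their values were seen. CDH5 meets the rule but was also named after its values were seen. Some genes of the pathway lists, and 1 whole list, are not reported here, and the counts are over the genes that are.

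Alternatives used pseudocounts of 1 and 0.1, the filter removed or set at a mean FPKM of 1, rescaling to the same sum, median-of-ratios factors, quantile normalization, no variance trend, a fit of 2 groups alone, a block for the replicate number, read GC content per library (from the study's sequencing summary) as a covariate, block and covariate together, and each library left out in turn.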

Additional observations from a re-analysis of the deposited data

How the results depend on the processing

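Each of the 10 members was recomputed in 3 comparisons under 21 alternatives, 630 values in all. Of these, 587 kept their direction and their status as DEG or not. Another 28 changed sign, 4 lost the status without a change of sign and 11 gained it. Where PMAIP1 in GB vs. CON changed sign, with the GC covariate alone and with the block, it lost the status as well. At the adjusted p alone, 24 values lost and 18 gained a p under 0.05. Read GC content was higher in every CON library than elsewhere and highest in CON replicate 2, so the GC covariate and the group cannot be fully told apart.

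The number of members that were DEGs in GB vs. CON, 2, was 0 with the GC covariate, 1 with the GC covariate and the replicate block (BID at 1.02, not a DEG otherwise, while PMAIP1 and BBC3 were lost), and 1 to 2 with each library left out (1 without CON replicate 2 or GB replicate 2, each time without PMAIP1). At the adjusted p alone, 5 became 2 (BID, and BAD, which had not passed) and 1 (BID) with these covariates, while the share of all genes went from 33.5% to 11.7% and 4.09%, and MCL1 was 0.23 with each (adjusted p = 0.160 and 0.393). In GB vs. GA, 0 became 1 (PMAIP1) with a pseudocount of 1, the filter at 1, rescaling to the same sum, median-of-ratios factors, quantile normalization, only the 2 groups, the GC covariate and the GC covariate with the block, and 0 to 1 with each library left out (1 without CON replicate 1 or 2). At the adjusted p, 5 became 3 without a filter and 2 to 8 with each library left out, lowest without GA replicate 3 and highest without CON replicate 2, while the share of all genes went from 29% to 20.1% without a filter and to 21.6% and 32.7% without these libraries. The F test count of 5 was 3 to 8 with each library left out, 3 without GB replicate 1 or 2 and 8 without CON replicate 3.

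PMAIP1 in GB vs. CON changed sign to −0.15 with the GC covariate and −0.73 with the GC covariate and block, and the BBC3 value of −1.52 with both had an adjusted p of 0.180. BCL2L1 in GB vs. CON changed to −0.056 with the GC covariate, and BAK1 in GB vs. GA to 0.028 with median-of-ratios factors. The other changes of sign were in GA vs. CON, where no member passed. With the GC covariate, alone and then with the block, BAD was −0.18 and −0.14, BAX −0.11 and −0.15, BCL2L1 −0.19 and −0.12, BCL2L11 0.20 and 0.074, MCL1 −0.14 and −0.13 and PMAIP1 −1.24 and −1.78, and BCL2 was 0.15 with both. BAK1 was −0.0094 with the same sum, −0.036 with median-of-ratios factors and −0.025 with quantile normalization, and MCL1 was −0.0010 with median-of-ratios factors. With a library left out, BAK1 ranged from −0.021 to 0.088, BCL2 from −0.17 to 0.0096, BCL2L1 from −0.017 to 0.23, BCL2L11 from −0.42 to 0.024, BID from −0.033 to 0.14, MCL1 from −0.015 to 0.12 and PMAIP1 from −0.27 to 0.67. The cause was not tested.

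With the replicate number as a block, 503, 458 and 5 genes were DEGs in GB vs. CON, GB vs. GA and GA vs. CON, against 504, 458 and 9 without it, and the block changed no call of a member in these comparisons (PMAIP1 in GB vs. GA had an adjusted p of 0.0576). In the F test 6 members passed with the block in place of 5, BAD being added (adjusted p = 0.0472 against 0.0620 without it). Deviations of same-numbered libraries correlated at −0.031 to 0.077, and not every library correlated best with its own number. Whether same-numbered libraries share a cow or a batch is not given, and these correlations cannot decide it.

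The table gives no reads, so precision at low FPKM is not known, and BBC3, BCL2 and BCL2L11, at 3.92 to 19.6 FPKM, rest on fewer reads per length than BAX or MCL1. With 3 libraries a group, 1 library such as CON replicate 2 can set both a mean and the spread.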
